A study of Homo sapiens with 4 samples.

Results

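The genes described here lie side by side on the long arm of chromosome 16, around FTO and IRX3. They are the 9 genes FTO, IRX3, IRX5, IRX6, CRNDE, MMP2, LPCAT2, NUDT21 and OGFOD1. The array annotation names 19775 genes from probe sets with 1 symbol, and 8 of the 9 are among them. A probe set is a group of short oligonucleotides on the array that reads 1 transcript region. The members were taken as all probe sets annotated to exactly 1 of these symbols, which gave 20 of the 54613 probe sets tested and 8 of the 9 genes. IRX6 had no probe set in the annotation used and has no value here. The genes were chosen by the measured intensities of 320-IWR against COLO-320DM cells, so their differences between these lines are given as a description, without a test.

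Total RNA was hybridised to Affymetrix U133 Plus 2.0 arrays, 2 of 320-IWR cells and 2 of COLO-320DM cells. 320-IWR is a tankyrase inhibitor-resistant subline, obtained from COLO-320DM under lasting exposure to IWR-1, which blocks the enzyme that marks Axin for degradation. COLO-320DM is the parental line, a Wnt/β-catenin-dependent colorectal cancer cell line with mutated APC, and both lines share that background. The sources say neither whether IWR-1 was in the 320-IWR medium when RNA was taken nor whether the replicates were separate cultures, so spreads and p-values cover differences between these arrays and may be technical. The labels do not call 320-IWR a clone, and the study also drew clones from it.

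FTO encodes an oxygenase that removes methyl groups from adenines in RNA. Introns of FTO hold enhancers that, in fat and brain tissue, act on the distant homeobox genes IRX3 and IRX5 rather than on FTO itself. IRX3, IRX5 and IRX6 form 1 of the clusters of Iroquois transcription factors, which pattern the neural tube, limb, heart and other organs. CRNDE is a long non-coding RNA that starts next to IRX5, is read in the opposite direction and is known for its high level in colorectal tumours. MMP2 is a secreted gelatinase, LPCAT2 makes platelet-activating factor and remodels phosphatidylcholine, NUDT21 is a subunit of the complex that guides pre-mRNA cleavage and polyadenylation, and OGFOD1 is a prolyl hydroxylase of a ribosomal protein.

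The starts of members that lie head to head are shown for CRNDE beside IRX5 and for NUDT21 beside OGFOD1, to be read beside their values. No start of IRX5 was found, so for that pair only the CRNDE side is shown and not the whole sequence between the genes. Promoter sequences of RefSeq (GRCh38.p14) were found for 4 of the 9 members, FTO, CRNDE, NUDT21 and OGFOD1. Capitals mark matches on either strand to 4 motifs, the TCF/LEF core CTTTGA, the GC box GGGCGG, the CCAAT box and the TATA box TATAAA, and the runs are written 5′ to 3′ on the minus strand. The first run is the 250 bases before the start of CRNDE, on the side of IRX5 (chr16:54928887-54929136), and the second is the 191 bases between the start of NUDT21 and the nearest of 3 starts listed for OGFOD1 (chr16:56451333-56451523).
CRNDE upstream: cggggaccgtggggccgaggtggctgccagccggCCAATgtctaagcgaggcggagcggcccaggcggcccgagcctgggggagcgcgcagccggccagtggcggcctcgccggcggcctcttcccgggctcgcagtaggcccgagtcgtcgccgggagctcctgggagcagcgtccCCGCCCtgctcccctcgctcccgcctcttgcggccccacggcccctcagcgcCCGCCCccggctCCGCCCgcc
NUDT21-OGFOD1 gap: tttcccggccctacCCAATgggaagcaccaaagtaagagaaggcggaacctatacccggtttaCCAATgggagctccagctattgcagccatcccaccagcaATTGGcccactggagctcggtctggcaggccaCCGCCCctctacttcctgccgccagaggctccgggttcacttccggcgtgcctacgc

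The CRNDE run held 3 GC boxes and 1 CCAAT box, and the run between NUDT21 and OGFOD1 held 1 GC box and 3 CCAAT boxes. Neither run held CTTTGA or TATAAA in these letters, while the 250 bases before the farthest OGFOD1 start held 1 CTTTGA, 50 bases before it. Among 35116 RefSeq promoter windows of 250 bases, 42.6% held the GC box, 32.0% the CCAAT box, 11.2% CTTTGA and 10.7% TATAAA. The CRNDE run was 80.0% G and C, against a median of 58.0% over all windows, and held 33 CpG dinucleotides against a median of 11.

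The array medians lay between 41 and 41.8 intensity units. Calls here mean a difference of 2-fold or more with a limma p, adjusted by Benjamini and Hochberg over all probe sets, under 0.05, which 61 probe sets (0.112%) met as higher and 141 as lower in 320-IWR cells. How far an intensity lies above background is unknown, since no detection calls were used. Of 11 colon epithelial markers, 5 were lower and 6 higher by sign in 320-IWR cells. CDX2, the homeobox factor of intestinal identity, had 2723 and 2790 units in 320-IWR cells and 3403 and 3263 in COLO-320DM cells, while EPCAM, CDH1 and KRT19 stayed below 36 units on every array. EPCAM, though dim, had 13.5 and 18.1 units in 320-IWR cells and 23.5 and 35.1 in COLO-320DM cells (log2 fold change -0.88, limma adjusted p = 0.356). The keratins KRT8 and KRT18 fell in 320-IWR cells (log2 fold changes -2.26 and -1.67, limma adjusted p = 0.0155 and 0.0322) and KRT20 rose (1.78, adjusted p = 0.0412). Their part in the members' values was not tested. Of 7 neuroendocrine markers none was called, 2 were lower and 5 higher by sign, and their summed intensity was 164 and 174 units in 320-IWR cells and 186 and 178 in COLO-320DM cells. CHGA, SCG2, SCG3 and INSM1 stayed below 21 units, CHGB and SYP lay at 39.5 to 62.3 units, and ENO2, a neuronal enolase, had 32.5 and 20 units in 320-IWR cells and 62.8 and 48.6 in COLO-320DM cells (log2 fold change -1.12, adjusted p = 0.282). No leukocyte, fibroblast or endothelial marker was called.

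Of the 20 member probe sets, 18 had a lower mean log2 value in 320-IWR cells, beside 46.0% of all probe sets. In RNA of whole cultures, fewer cells that express a gene and less of its RNA per cell cannot be told apart. In 15 of them both 320-IWR arrays lay below both COLO-320DM arrays, which held for 16.1% of all probe sets, and 1 probe set, that of IRX3, was called, which held for 0.370% of all probe sets (0.258% as lower). By the brightest probe set of each gene, all 8 measured genes were lower, with a median log2 fold change of -0.69, beside 0.02 over all genes. These counts follow from how the genes were chosen and nothing is read from them.

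**Figure D1:**
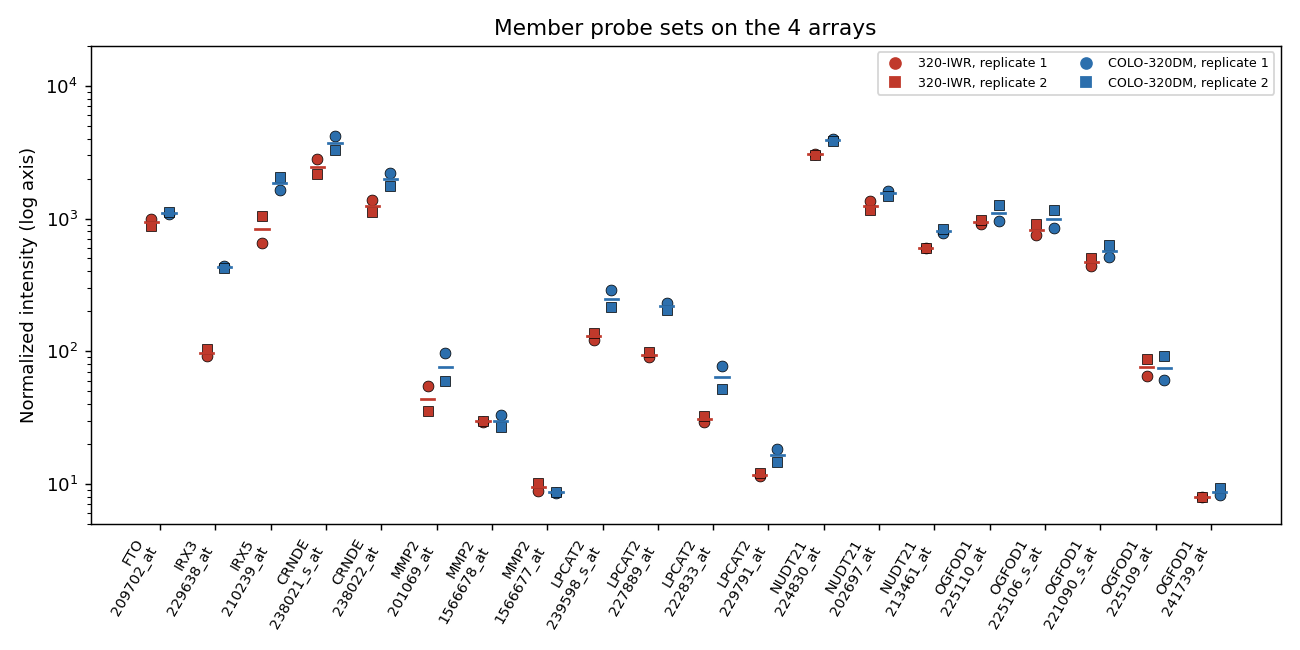
Normalized intensity (log axis) of the 20 member probe sets on each of the 4 arrays, with 320-IWR in red and left of COLO-320DM in blue, circles for replicate 1, squares for replicate 2 and a bar at the geometric mean. The points of the lines are farthest apart for IRX3, lie apart in all 4 LPCAT2 probe sets and overlap in 3 of the 5 OGFOD1 probe sets.

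Among the homeobox genes, IRX3 showed the largest difference of the 8 measured members. Its probe set had 92 and 103 units in 320-IWR cells, against 440 and 422 in COLO-320DM cells. The arrays of each line agreed closely (97.6 ± 7.86 and 431 ± 12.7, SD, n = 2 each), and the probe set was 4.43-fold lower in the resistant line (log2 fold change -2.15, standard error 0.13). By log2 fold change it stood at position 145 among all probe sets, counted from the lowest. The call of IRX3 was lost when any 1 of the 4 arrays was left out, with log2 fold changes between -2.23 and -2.06. Without 320-IWR replicate 1 or 2 limma called 0 probe sets in all, and without COLO-320DM replicate 1 or 2 it called 63 and 58.

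IRX5 had 656 and 1053 units in 320-IWR cells and 1640 and 2060 in COLO-320DM cells. The lines did not overlap, but the arrays of a line differed more than for IRX3 (855 ± 281 and 1850 ± 297, SD, n = 2 each). IRX5 was 2.21-fold lower in the resistant line (log2 fold change -1.14, standard error 0.27) and was not called. Replicate 2 was the higher array in both lines.

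CRNDE, the non-coding neighbour of IRX5, was read by 2 bright probe sets that gave like values. The brighter one, an _s_at probe set, had 2801 and 2170 units in 320-IWR cells and 4171 and 3288 in COLO-320DM cells. The other had 1370 and 1121 units in 320-IWR cells and 2204 and 1760 in COLO-320DM cells. The lines did not overlap in either, and replicate 1 was the higher array in both lines, opposite to IRX5. The log2 fold changes were -0.59 (standard error 0.20) and -0.67 (standard error 0.18), so CRNDE in 320-IWR cells stood at 66.6% and 62.9% of its COLO-320DM level. In the gene table of GRCh38.p14 no entry lies between CRNDE and IRX5.

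FTO had 995 and 878 units in 320-IWR cells and 1078 and 1111 in COLO-320DM cells. The lines did not overlap, yet the difference of the means (936 ± 82.3 and 1095 ± 23.3, SD, n = 2 each) was 1.17-fold (log2 fold change -0.23, standard error 0.13). FTO rests on 1 probe set in the annotation used. On the log2 scale its difference was far smaller than that of IRX3, with no other protein-coding gene between them in the gene table. Whether the enhancers known from fat and brain tissue act in these lines was not tested.

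MMP2 and LPCAT2 lie next to each other beyond IRX6. The brightest MMP2 probe set, itself dim, had 54.4 and 35.5 units in 320-IWR cells and 96.5 and 59.3 in COLO-320DM cells. The lines did not overlap, but the gap between the closest arrays was small beside the spread within a line (45.0 ± 13.4 and 77.9 ± 26.3, SD, n = 2 each), and the log2 fold change was -0.78 (standard error 0.32). Replicate 1 was the higher array in both lines, and the log2 ratios of same-numbered arrays were -0.83 and -0.74. The other MMP2 probe sets, at 8.57 to 33.2 units on all arrays, had log2 fold changes of -0.01 and 0.13. MMP2 is also a gene of fibroblasts, and the summed intensity of 8 fibroblast markers was 713 and 1606 units in 320-IWR cells and 738 and 1642 in COLO-320DM cells. COL3A1 made up most of the difference between arrays in that sum, with 278 and 1187 units in 320-IWR cells and 292 and 1193 in COLO-320DM cells. Of the 8 markers 5 were lower and 3 higher by sign, LUM stayed below 10 units, and the largest difference was that of PDGFRB, with 73.7 and 47.4 units in 320-IWR cells and 81.9 and 73.7 in COLO-320DM cells (log2 fold change -0.39, adjusted p = 0.762). Their part in the MMP2 values was not tested.

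LPCAT2 was lower in all 4 of its probe sets, and the lines did not overlap in any of them. The brightest had 122 and 137 units in 320-IWR cells and 288 and 215 in COLO-320DM cells (log2 fold change -0.95, standard error 0.19). The second had 89.6 and 98.6 units in 320-IWR cells and 232 and 204 in COLO-320DM cells, 2.32-fold lower in the resistant line (log2 fold change -1.21, standard error 0.14). The dimmer probe sets gave -1.04 (standard error 0.22) and -0.49 (standard error 0.16) on the log2 scale. The last of these lay at 11.5 to 18.4 units and was the smallest of the 4 differences. None of the LPCAT2 probe sets was called.

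NUDT21 and OGFOD1, whose nearest starts lie 191 bases from each other and which are read away from each other, showed small differences. The brightest NUDT21 probe set had 3083 and 3013 units in 320-IWR cells and 3952 and 3816 in COLO-320DM cells (3048 ± 49.6 and 3884 ± 96.6, SD, n = 2 each). Its log2 fold change was -0.35 (standard error 0.12), and the other NUDT21 probe sets had -0.43 and -0.30 (standard errors 0.12 and 0.14). The lines did not overlap in any of these 3. OGFOD1 had 904 and 981 units in 320-IWR cells and 965 and 1262 in COLO-320DM cells by its brightest probe set (log2 fold change -0.23, standard error 0.17). These arrays overlapped between the lines, as they did for 2 other OGFOD1 probe sets. The other 4 OGFOD1 probe sets had log2 fold changes of -0.27, -0.26, 0.02 and -0.14, and the last lay at 7.89 to 9.32 units.

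Ordered by the log2 fold change of the brightest probe sets, the members ran IRX3, IRX5, LPCAT2, MMP2, CRNDE, NUDT21, OGFOD1 and FTO, from the most negative. Between IRX3 and IRX5 the gap exceeded the sum of their standard errors, 0.40. The later gaps, between 0.00 for OGFOD1 and FTO and 0.24 for CRNDE and NUDT21, were each smaller than the sum of the standard errors, which lay between 0.29 and 0.52. This sum is a wide measure of the spread, and the order is a description without a test.

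The other genes of the interval were read in the same way. From CHD9 to BBS2 the gene table of GRCh38.p14 lists 52 further entries, 15 of them with a probe set. By the brightest probe set limma called 0 of these 15, beside 0.592% of all genes, and 0 had an unadjusted p under 0.05, beside 12.3%. Their median log2 fold change was -0.07, 10 of 15 were below 0 (45.8% of all genes were), and in 3 both 320-IWR arrays lay below both COLO-320DM arrays (17.5% of all genes). Over all 35 probe sets of these genes, 2 had an unadjusted limma p under 0.05, both of CHD9, beside 5305 of all 54613 probe sets. Both 320-IWR arrays lay below both COLO-320DM arrays in 11 of the 35 (31.4%, beside 16.1% of all probe sets) and above them in 6 (17.1%, beside 19.5%). Most of these neighbours were dim. Of the 6 whose mean log2 value reached 6 in either line, 5 were below 0 (47.8% of all genes under the same limit), in 2 both 320-IWR arrays lay below both COLO-320DM arrays (21.9%), and the median was -0.24. For the 802 other measured genes of chromosome 16 the median was 0.00 and 48.9% were below 0. The interval was proposed with its differences known, and its genes share the windows along the chromosome in which they were noticed, so these counts are a description too.

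By the brightest probe sets, the neighbours with the largest differences were CES1, RPGRIP1L, CES5A and RBL2. Some dimmer probe sets of neighbours differed more than the brightest, such as those of CHD9 at -0.73 and -0.85, given below. CES1, a carboxylesterase, had 43.9 and 40.3 units in 320-IWR cells and 54.1 and 141 in COLO-320DM cells. The log2 fold change of -1.06 (standard error 0.46, adjusted p = 0.598) rests on 1 bright COLO-320DM array. RPGRIP1L, a ciliary gene that starts next to FTO on the opposite strand, had 198 and 165 units in 320-IWR cells and 317 and 179 in COLO-320DM cells (log2 fold change -0.40, adjusted p = 0.846). CES5A, at 9.16 to 12.6 units on all arrays, had 0.33 (adjusted p = 0.534), and RBL2, a pocket protein of cell cycle control, had -0.25 (adjusted p = 0.935). AKTIP and BBS2, at 250 to 536 units on all arrays, had 0.05 and -0.10 (adjusted p = 1 and 0.99). Between LPCAT2 and NUDT21 lie 6 protein-coding genes, among them GNAO1 at 28.8 to 41.3 units with a log2 fold change of 0.19 (adjusted p = 0.919).

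**Figure D2:**
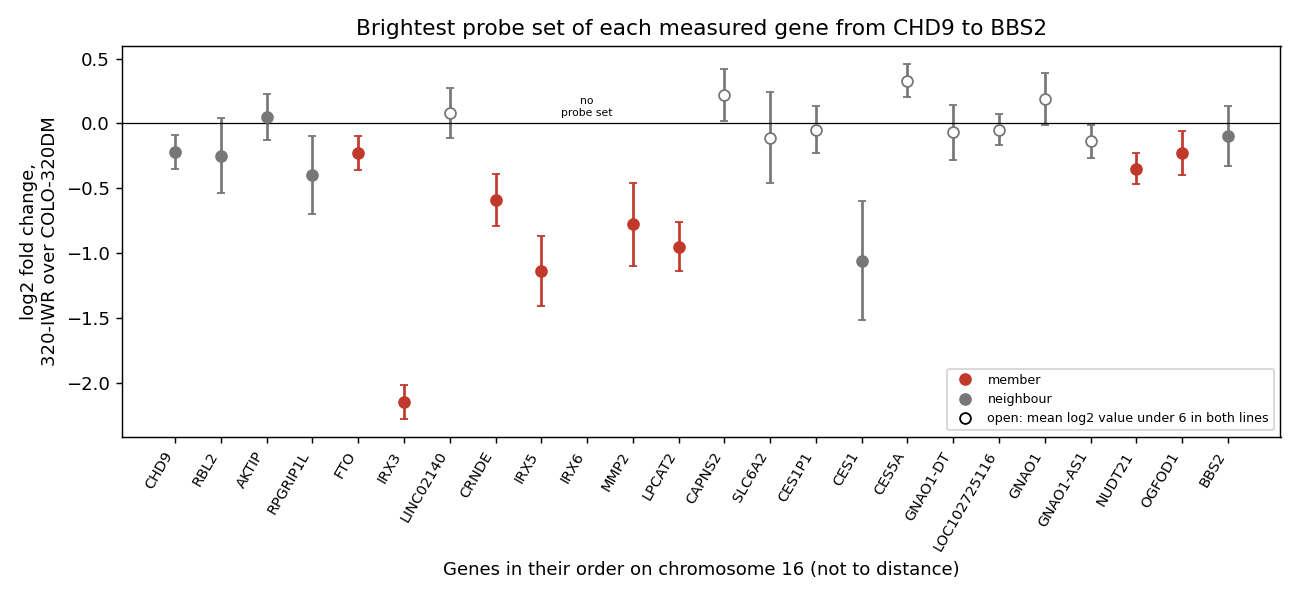
Log2 fold change of 320-IWR over COLO-320DM for the brightest probe set of each measured gene from CHD9 to BBS2, with standard errors, in chromosome order. Members are red and neighbours grey, and open points mark genes with a mean log2 value under 6 in both lines. The lowest point is IRX3 at -2.15, and most dim genes between LPCAT2 and NUDT21 lie near 0.

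The partners and relatives of the members were read from 6 lists. Of 91 such genes limma called 0, beside 0.592% of all genes, and 12 had an unadjusted p under 0.05 (12.3% of all genes). The log2 fold changes of the 91 had a median of 0.05 and ran from -0.99 to 0.76, short of the 2-fold limit of a call. The 0 called in each list below follows from that limit and is to be read beside the 0.592%. Of 18 measured writers, erasers and readers of the RNA methyl mark that FTO removes, 0 were called and 0 had an unadjusted p under 0.05 (median 0.01). METTL3, the catalytic writer, had 1551 and 1215 units in 320-IWR cells and 2243 and 1654 in COLO-320DM cells (log2 fold change -0.49, adjusted p = 0.598), and VIRMA, a writer subunit, had a log2 fold change of 0.36 (adjusted p = 0.534). ALKBH5, the other RNA demethylase of this kind, had 0.01 (adjusted p = 1).

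Of 14 further IRX and TALE homeobox genes, 0 were called (median log2 fold change 0.03). IRX1, IRX2 and IRX4, which form the other Iroquois cluster, stayed at or below 48.9 units on every array, with differences of 0.11, 0.08 and 0.04 on the log2 scale (adjusted p = 0.951, 0.961 and 1). PBX3, a TALE partner of HOX proteins, had 364 and 359 units in 320-IWR cells and 247 and 238 in COLO-320DM cells (log2 fold change 0.58, adjusted p = 0.194), and PBX4 had -0.29 (adjusted p = 0.708). Of 17 genes of pre-mRNA cleavage and polyadenylation, the process of NUDT21, 0 were called (median 0.05) and 3 had an unadjusted p under 0.05. CPSF6, which pairs with NUDT21 in its complex, had a log2 fold change of -0.09 (adjusted p = 0.957), and CPSF7, its alternative partner, had 0.37 (adjusted p = 0.781). The largest differences were those of PABPN1, the nuclear poly(A)-binding protein, at -0.99 (adjusted p = 0.583) and CLP1, a cleavage factor subunit, at 0.72 (adjusted p = 0.208).

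Of 10 genes that activate or inhibit gelatinases, 0 were called (median log2 fold change -0.05). TIMP2, which both inhibits MMP2 and helps its activation, had 472 and 488 units in 320-IWR cells and 712 and 944 in COLO-320DM cells (log2 fold change -0.77, adjusted p = 0.235). The membrane protease MMP14, which activates MMP2, had -0.04 (adjusted p = 1), and BSG, an inducer of matrix metalloproteinases, had 0.70 (adjusted p = 0.479). Of 13 genes of phospholipid remodelling and platelet-activating factor, 0 were called (median 0.08). The paralogs LPCAT1, LPCAT3 and LPCAT4 gave 0.09, 0.20 and -0.05 on the log2 scale (adjusted p = 0.993, 0.791 and 0.997), beside -0.95 for LPCAT2. MBOAT7, a lysophosphatidylinositol acyltransferase, had 0.37 (adjusted p = 0.496) and PLA2G4A, the cytosolic phospholipase that releases arachidonic acid, had 0.27 (adjusted p = 0.608). Of 19 other 2-oxoglutarate oxygenases, the enzyme class of FTO and OGFOD1, 0 were called (median 0.17). P4HTM, a membrane prolyl hydroxylase, had -0.80 (adjusted p = 0.145), ALKBH3, a nucleic acid demethylase, had 0.76 (adjusted p = 0.126), and OGFOD2 and OGFOD3 had 0.17 and -0.72 (adjusted p = 0.813 and 0.248).

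**Figure D3:**
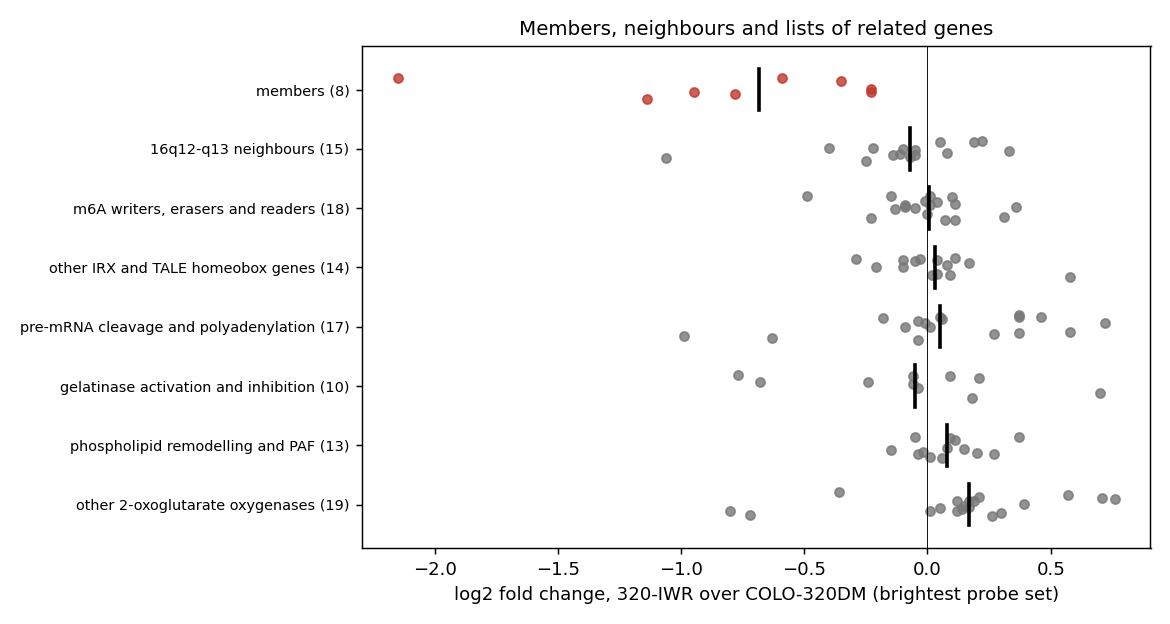
Log2 fold change of 320-IWR over COLO-320DM by the brightest probe set of each gene, for the 8 measured members (red), the 15 measured neighbours and 6 lists of related genes (grey), with a black bar at each median. The members all lie below 0, which their choice fixed, while the medians of the lists lie between -0.05 and 0.17.

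Genes with the pattern over 4 arrays most like that of 2 members were found by the distance between centred log2 values, as a description. Nearest to IRX3 were VANGL2, a planar cell polarity protein, CCDC28B and KLHL9 (distances 0.118, 0.150 and 0.159), with log2 fold changes of -2.04, -2.07 and -2.19. VANGL2 had 28.4 and 31.4 units in 320-IWR cells and 128 and 118 in COLO-320DM cells. Nearest to FTO were WNT6, ABHD8 and ACTR3 (distances 0.00548, 0.0119 and 0.0174), with log2 fold changes of -0.23, -0.23 and -0.22. None of these 6 genes lies on chromosome 16, and among 19775 genes 4 arrays leave many patterns alike.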

How the data were processed

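Total RNA of 320-IWR and COLO-320DM cells was measured on 4 arrays, 2 for each line, and each array was assigned to its line by its label. The deposited values are intensities per probe set on a linear scale. Per the labels the authors made them with RMA (version not given in the sources used here), and their methods name GeneSpring GX for the normalization. Here log2 was taken with a floor of 1, 62 control probe sets were left out, and 54613 probe sets were fitted with limma 3.58.1 (lmFit, eBayes, R 4.3.3), with cell line as the sole factor. Calls needed a difference of 2-fold or more and an adjusted p (Benjamini-Hochberg, all probe sets) under 0.05. Standard errors are limma's moderated ones (prior degrees of freedom 2.78). The number of arrays limits the precision. The annotation gave 41091 probe sets 1 symbol, 1801 several and 11721 none, and none needed an update against GRCh38.p14. Outside the members each gene was represented by its brightest probe set, with some exceptions. These were the counts over all probe sets of the neighbours, the CHD9 values and the alternatives that average or drop probe sets. The files name no genome build, so the gene table was used for order only.

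Named were all members, the called neighbours and the 4 with the largest absolute log2 fold change, up to 4 called genes and the 2 largest of each list, marker genes, and the 3 nearest patterns to FTO and to the member with the largest difference. AKTIP, BBS2, GNAO1, ALKBH5, IRX1, IRX2, IRX4, CPSF6, CPSF7, MMP14, LPCAT1, LPCAT3, LPCAT4, OGFOD2 and OGFOD3 were added after their values were seen. The members and lists were chosen with earlier results of these data known. Alternatives were the replicate block, each array left out, cyclic loess, equal medians, an offset of 16 before log2, a filter on dim probe sets, a trended robust prior, the mean of a gene's probe sets, and no _x_at or _s_at probe sets.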

Additional observations from a re-analysis of the deposited data

How the results depend on the processing

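The count of called probe sets was 202 with all arrays, 0 to 63 with 1 array left out, 576 with the replicate block and 111 with an offset of 16 before log2, and the member probe sets called were 1 with all arrays and 0 with any 1 array left out. With all arrays the called member was IRX3, and 0 neighbours and 0 list genes were called, in each setting run. In the main fit the list genes ran from -0.99 to 0.76 on the log2 scale, short of the 2-fold limit. Of the neighbours only CES1 passed that limit (-1.06), so the zeros follow largely from it. The median log2 fold change of the members was -0.69, between -0.87 and -0.43 with 1 array left out and -0.49 when a gene's probe sets were averaged, which adds dim probe sets. Of 195 values of member probe sets under alternatives, 4 moved by more than the spread between replicates, under cyclic loess or the offset. With 2 arrays per line, leaving 1 out cannot move a value beyond this spread. The replicate block, the prior and the dim filter leave a log2 fold change as it is. The count that stayed within the spread is therefore no measure of stability. The 4 signs that changed belonged to 1 MMP2 and 1 OGFOD1 probe set, both with a difference near 0 with all arrays. The labels number the replicates without naming a shared batch. Deviations of same-numbered arrays correlated at 0.661 across all probe sets. Across the brighter ones kept by the dim filter, whose log2 mean reached 6 for either line, the correlation was 0.801. The main fit has no term for replicate number, so any part shared by same-numbered arrays stays in its SDs and standard errors. Only 2 pairs exist, so no pairing is claimed. The replicate block changed no call of a member, neighbour or list gene.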

Other observations

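CHD9, a chromatin remodeller at the centromeric end of the interval, was read by 7 probe sets that did not give 1 value. The brightest gave -0.22 on the log2 scale (adjusted p = 0.75). A dimmer one had 208 and 222 units in 320-IWR cells and 365 and 348 in COLO-320DM cells, a log2 fold change of -0.73 (limma adjusted p = 0.139), and another had -0.85 (adjusted p = 0.248). The other 4 had -0.26, -0.02, -0.05 and -0.19. CHD9 was chosen for this after its values were seen, and none of its probe sets was called.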
